A study of Homo sapiens with 6 samples.

Results

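The genes described here are 10 of the heme, iron storage and NRF2 system: HMOX1, BACH1, NFE2L2, KEAP1, NQO1, TXNRD1, SRXN1, FTH1, FTL and TFRC. They were taken by symbol from the deposited expression table, and all 10 were found among its 21429 genes. The values come from 6 RNA sequencing libraries of U251, an established human glioma line that stably expresses amyloid precursor protein with the K670N and M671L substitutions. Per the labels, 3 libraries (siNC) came from cells electroporated with a control siRNA and 3 (siRPL13) from cells electroporated with an siRNA against RPL13, a protein of the large ribosomal subunit. Both groups carried the mutant precursor, and in both doxycycline at 1 µg/mL was given after 24 h to induce it, with harvest at 72 h. The sources used here do not say whether the line is 1 clone. Values are regularized-log (rlog) levels on the log2 scale, so a difference of 1 is a doubling. This transformation pulls low genes towards their mean and understates their changes.

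As background, NFE2L2 encodes NRF2, a transcription factor that KEAP1 holds in the cytoplasm and directs to degradation. Oxidants and electrophiles release NRF2, which then drives antioxidant response elements in genes such as NQO1, TXNRD1 and SRXN1. BACH1 is a heme-binding repressor that occupies the same elements, most prominently at HMOX1, the inducible heme oxygenase that splits heme into biliverdin, carbon monoxide and iron. Iron freed in this way is stored in ferritin, a shell of heavy (FTH1) and light (FTL) chains, and iron enters the cell through the transferrin receptor TFRC. In low iron the iron regulatory proteins bind hairpins in these messages, called iron-responsive elements, which blocks translation of ferritin and stabilises TFRC mRNA.

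FTH1, FTL and TFRC carry that hairpin pattern in the transcripts of the GENCODE 29 annotation (GRCh38), and their sites are printed because these genes include FTH1 and TFRC, which rose in the comparison below. The pattern searched was a C, then 5 bases, then the 6-base loop CAGTGN with a last base other than G, then 5 bases that pair with the first 5 (G with T allowed), on the transcript strand. Each site is printed with 6 bases on either side, 5′ to 3′, with the loop in capitals.
FTH1 (chr11:61967574-61967602, minus strand, 5′ UTR, exon 1): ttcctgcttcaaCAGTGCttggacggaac
FTL (chr19:48965335-48965363, plus strand, 5′ UTR, exon 1): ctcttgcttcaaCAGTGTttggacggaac
TFRC site 1 (chr3:196050979-196051007, minus strand, 3′ UTR, exon 19): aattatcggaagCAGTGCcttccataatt
TFRC site 2 (chr3:196050575-196050603, minus strand, 3′ UTR, exon 19): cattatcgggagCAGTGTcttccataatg
TFRC site 3 (chr3:196050510-196050538, minus strand, 3′ UTR, exon 19): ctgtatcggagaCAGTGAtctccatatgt
TFRC site 4 (chr3:196050463-196050491, minus strand, 3′ UTR, exon 19): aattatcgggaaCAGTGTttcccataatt

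The ferritin sites lie in the 5′ UTR, with loops starting at base 71 of FTH1 and base 47 of FTL, and the 4 TFRC sites lie in the 3′ UTR between 944 and 1460 bases past the coding part. The other 7 genes had no match. Of 19684 protein-coding genes scanned, 214 (1.09%) held the pattern in some transcript and 130 (0.660%) held it in a UTR. A match is a description of letters, and a hairpin with a mismatch in its stem would not be found.

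**Figure D1:**
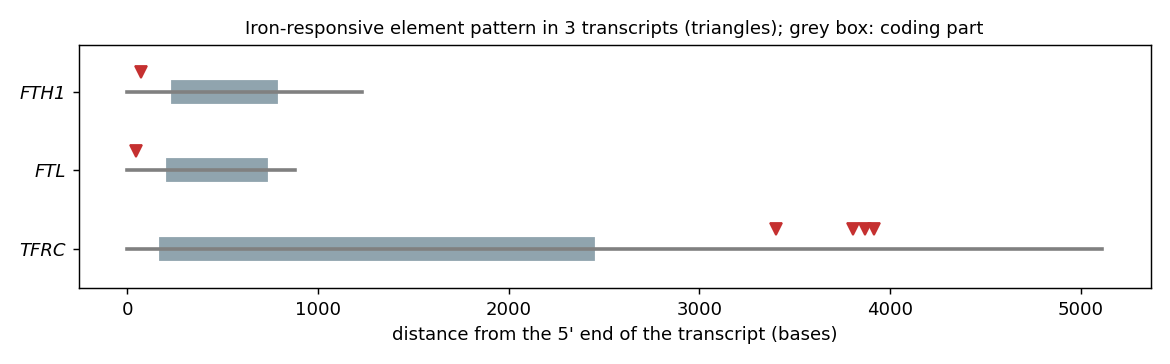
Positions of the iron-responsive element pattern in the FTH1, FTL and TFRC transcripts, as distance in bases from the 5′ end (horizontal axis), with a grey box for the coding part, a line for the whole transcript and a triangle for each match. FTH1 and FTL have 1 match each before the coding part, and TFRC has 4 after it.

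The targeted gene was read in every library. RPL13 had values of 14.05, 14.16 and 14.18 across siNC, against 13.03 for siRPL13 replicate 1 and 13.12 for replicate 2. The library labelled siRPL13 replicate 3 was at 14.09. This value lies among the control values, so differences are given with 5 libraries, without it, and with all 6. The comparison of 5 libraries was chosen with earlier results of these data known. Of the 10 glial and glioma markers checked, 9 were in the table; VIM, CD44, GFAP, NES and SOX2 had mean levels in siNC between 13.42 and 16.23, while S100B (5.66) and CHI3L1 (0.24) were low. Among these glial markers VIM (-0.31, adjusted p 0.0091) and NES (-0.34, adjusted p 0.00227, limma, 5 libraries) fell, by about as much as FTH1 rose. GFAP had a difference of -0.31 that did not pass (adjusted p 0.0985, limma), and VIM, NES and GFAP lay below siNC in all 3 siRPL13 libraries. The other glial markers tested did not share this fall. SOX2 (0.08), CD44 (0.07), SOX9 (0.06), SLC1A3 (-0.06) and S100B (-0.04) did not pass (adjusted p 0.322 to 0.807, limma, 5 libraries). The part of the VIM and NES falls in the results below was not tested. Of 8 microglia and leukocyte markers 4 were in the table, with siNC means of 5.02 for CSF1R, 3.60 for CD14, 0.37 for CD68 and 0.20 for ITGAM, and CSF1R and CD14, the pair tested, did not pass (adjusted p 0.348 and 0.522, limma). Of 5 neuron markers RBFOX3 stood at 0.22 and the other 4 between 6.90 and 8.70. With 6 libraries limma called 0 of 15327 genes (0%) at an adjusted p under 0.05, although 1275 had an unadjusted p under 0.05. With 5 libraries it called 2933 (19.1%), 8.42% of the genes tested higher and 10.7% lower in siRPL13. "Rose" and "fell" refer below to an adjusted p under 0.05 by limma, adjusted over all 15327 genes, in the comparison of 5 libraries.

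Of the 10 genes, HMOX1, TFRC and FTH1 rose, NQO1 fell, and the other 6 did not pass. HMOX1 was 1.72-fold, TFRC 1.56-fold and FTH1 1.24-fold as high as in siNC, and NQO1 stood at 86.0% of siNC, all on the rlog scale. The called share was 4 of 10, beside 19.1% of all genes tested, and the median difference of the 10 genes was 0.02 (log2), beside 0.00 for all genes. With 6 libraries none of the 10 passed, with adjusted p-values from 0.589 to 0.974 (limma). When limma weighted the 6 libraries by their estimated quality, HMOX1 (adjusted p 0.000970), TFRC (0.000660), FTH1 (0.00564), NQO1 (0.00327) and NFE2L2 (0.0215) passed. The weights, estimated from these same values, were 0.992, 7.19 and 0.163 for siRPL13 replicates 1, 2 and 3. The siRPL13 side of that fit thus rests mostly on replicate 2. All 3 siRPL13 libraries lay above siNC for HMOX1 and below siNC for NFE2L2, and the groups overlapped for the other 8; the groups did not overlap for 13.8% of all genes. Without the library labelled siRPL13 replicate 3 the groups did not overlap for 51.3% of all genes and for 7 of these 10.

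**Figure D2:**
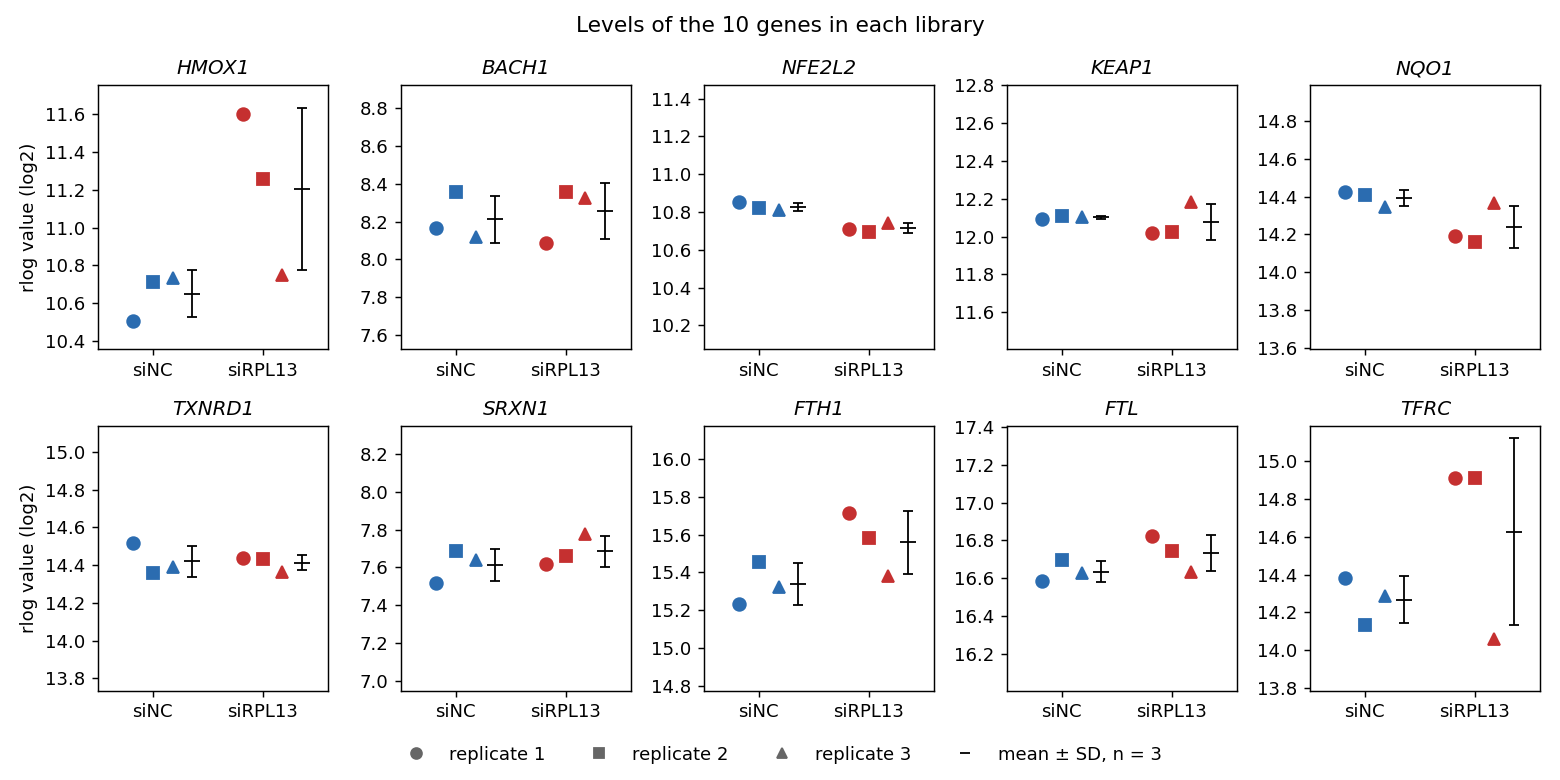
rlog level of the 10 genes, log2 (vertical axes, each spanning 1.4 units and not starting at 0), with a point per library (siNC blue, siRPL13 red, shapes for replicate numbers) and a black bar for the mean ± SD of 3 libraries. For HMOX1, siRPL13 replicate 1 is at 11.60 and replicate 2 at 11.26, and the library labelled siRPL13 replicate 3 is at 10.75, close to the siNC maximum of 10.73.

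HMOX1 (ENSG00000100292, chr22:35380361-35394214, plus strand) stood at 10.51, 10.71 and 10.73 across siNC, and at 11.60, 11.26 and 10.75 across siRPL13, in the order of the replicate numbers used throughout. The rise was thus large in the libraries with lowered RPL13, while the library labelled siRPL13 replicate 3 was close to the highest control. Across 5 libraries HMOX1 rose by 0.78 ± 0.10 (SE, log2; adjusted p 0.000836, limma) from 10.65 ± 0.12 (SD, n = 3), the 10th largest difference upward among 15327 genes. Over all 6 libraries the difference was 0.55 ± 0.18 (SE), with an adjusted p of 0.589 by limma. With siRPL13 replicate 1 left out of the 5 libraries the difference was 0.61, and with siRPL13 replicate 2 left out it was 0.95. Each of these fits holds 1 siRPL13 library, so the spread between siRPL13 libraries is not in it.

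BACH1 (ENSG00000156273, chr21:29194071-29630751, plus strand), the repressor of HMOX1, did not differ in a way these libraries could show. It stood at 8.16, 8.36 and 8.12 in siNC and at 8.09, 8.36 and 8.32 in siRPL13, so the groups covered the same range. The difference over 5 libraries was 0.01 (95% interval -0.21 to 0.23; adjusted p 0.952, limma). With all 6 libraries it was 0.04 ± 0.10 (SE). Exons of BACH1 overlap LINC00189 on the same strand and GRIK1 on the other, and the sources used here do not give whether counting was by strand.

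NFE2L2 (ENSG00000116044, chr2:177227595-177392697, minus strand) was slightly lower in every siRPL13 library than in every siNC library. It stood at 10.85, 10.82 and 10.81 in siNC and at 10.71, 10.69 and 10.74 in siRPL13. The difference was -0.13 ± 0.05 (SE) over 5 libraries, with an adjusted p of 0.0997, and -0.11 ± 0.05 over all 6, with an adjusted p of 0.589 (limma). Of the alternatives run, only the weighted fit of all 6 libraries, which rests mostly on siRPL13 replicate 2, called it (-0.13). Its exons overlap those of AGPS on the other strand and of AC019080.1 on the same strand.

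KEAP1 (ENSG00000079999, chr19:10486120-10503741, minus strand), which keeps NRF2 low, had the tightest control values of the 10 genes, 12.09, 12.11 and 12.10. siRPL13 replicates 1 and 2, at 12.02 and 12.03, lay below the controls, while the library labelled siRPL13 replicate 3, at 12.19, lay above them. The difference over 5 libraries was -0.08 (95% interval -0.18 to 0.02; adjusted p 0.264, limma), and with all 6 it was -0.02 ± 0.06 (SE).

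NQO1 (ENSG00000181019, chr16:69706996-69726951, minus strand), a quinone reductase and a standard readout of NRF2, moved opposite to HMOX1. It stood at 14.42, 14.41 and 14.35 in siNC. siRPL13 replicates 1 and 2 were lower, at 14.19 and 14.16, while the library labelled siRPL13 replicate 3, at 14.37, lay within the controls. Over 5 libraries NQO1 fell by 0.22 ± 0.05 (SE, log2; adjusted p 0.0139, limma) from 14.39 ± 0.04 (SD, n = 3). With all 6 libraries the difference was -0.15 ± 0.07 (SE, adjusted p 0.589, limma). The call was lost when siRPL13 replicate 1 (-0.23) or siRPL13 replicate 2 (-0.20) was left out as well, which leaves 1 siRPL13 library. Its exons overlap those of AC092115.2 on the other strand.

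TXNRD1 and SRXN1, the NRF2 targets that reduce thioredoxin and repair overoxidised peroxiredoxins, showed no such difference. TXNRD1 (ENSG00000198431, chr12:104215779-104350305, plus strand) stood at 14.51, 14.36 and 14.39 in siNC and at 14.44, 14.43 and 14.37 in siRPL13, inside the control range throughout. Its difference over 5 libraries was 0.01 (95% interval -0.11 to 0.14; adjusted p 0.889, limma), against -0.01 ± 0.07 (SE) with all 6. SRXN1 (ENSG00000271303, chr20:646615-653370, minus strand) stood at 7.52, 7.68 and 7.64 in siNC and at 7.62, 7.66 and 7.78 in siRPL13, with a difference of 0.03 (95% interval -0.15 to 0.20; adjusted p 0.851, limma). Its highest value was that of the library in which RPL13 was not lowered, and with all 6 libraries the difference was 0.07 ± 0.08 (SE). SRXN1 exons overlap AL121758.1 on the same strand.

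The promoters of these genes were searched for the antioxidant response element core TGACNNNGC on both strands, in RefSeq windows of 250 bases before to 50 bases after each start (GRCh38.p14). Windows covered 8 of the 10 genes, not HMOX1 and FTH1. These 8 genes had 13 windows, of which 3 held the core (2 of TXNRD1 and 1 of KEAP1, with 5 matches in all), beside 13.3% of all 35116 windows. The longer TGACTCAGC, which contains the core, was in none of the 13, beside 0.561% of all windows. An element outside these windows would not be found, so a gene without a match may still carry one. Of the 5 matches, the one 99 bases before a TXNRD1 start is shown with the core in capitals to make the pattern visible; binding was not measured.
TXNRD1 (chr12:104215670-104215698, plus strand): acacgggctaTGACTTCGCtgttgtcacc

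Of the ferritin chains, the heavy chain FTH1 rose and the light chain FTL did not pass the test. FTH1 (ENSG00000167996, chr11:61959718-61967660, minus strand) stood at 15.23, 15.46 and 15.32 in siNC and at 15.71, 15.58 and 15.38 in siRPL13. It rose by 0.31 ± 0.07 (SE, log2; adjusted p 0.0138, limma) over 5 libraries from 15.34 ± 0.11 (SD, n = 3), while the library labelled siRPL13 replicate 3 lay within the controls. With all 6 libraries the difference was 0.22 ± 0.10 (SE, adjusted p 0.589, limma). The call was lost with siRPL13 replicate 1 (0.24) or siRPL13 replicate 2 (0.37) left out as well, which leaves 1 siRPL13 library. FTL (ENSG00000087086, chr19:48965301-48966878, plus strand) stood at 16.58, 16.70 and 16.63 in siNC and at 16.83, 16.74 and 16.63 in siRPL13. Its difference over 5 libraries was 0.15 ± 0.06 (SE) with an adjusted p of 0.125 by limma, and 0.0492 when no filter on low genes was used, and with all 6 libraries it was 0.10 ± 0.08 (SE, adjusted p 0.689, limma). Whether the difference between the chains is itself beyond error was not tested.

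Reads of ferritin genes may be shared with processed pseudogenes, and the sources used here do not give how such reads were counted. The values of FTH1, FTL and the pseudogenes are uncertain for that reason. The table held 16 rows named as FTH1 or FTL pseudogenes, of which 11 passed the filter on low values. Of these 11, 2 rose and 0 fell, beside 8.42% higher and 10.7% lower among all genes. FTLP3, FTH1P8 and FTH1P2 had the highest levels (means of 11.14, 10.44 and 10.08). Of their 50-base stretches 31.7%, 28.2% and 40.8% occur unchanged in the parent transcript. The share of FTH1 and FTL stretches that occur in pseudogenes was not measured. FTLP3 (0.11 ± 0.06, adjusted p 0.219) and FTH1P2 (0.20 ± 0.06, adjusted p 0.0502, limma) did not pass. FTH1P8 (0.28 ± 0.07, adjusted p 0.0160) and FTH1P20 (0.30 ± 0.09, adjusted p 0.0344, limma) rose by about as much as FTH1. FTH1P20 was named after its value was seen. With all 6 libraries the differences of FTH1P8 and FTH1P20 were 0.19 and 0.22. FTH1 exons also overlap those of BEST1 on the other strand.

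TFRC (ENSG00000072274, chr3:196027183-196082189, minus strand) was higher in the libraries with lowered RPL13 and was lowest in the library labelled siRPL13 where RPL13 was not lowered. It stood at 14.38, 14.13 and 14.29 in siNC and at 14.91 in both siRPL13 replicates 1 and 2. The library labelled siRPL13 replicate 3, at 14.06, was below every control. Over 5 libraries TFRC rose by 0.64 ± 0.07 (SE, log2; adjusted p 0.000413, limma) from 14.27 ± 0.13 (SD, n = 3), the 24th largest difference upward of 15327. Over all 6 libraries the difference was 0.36 ± 0.21 (SE) with an adjusted p of 0.620 by limma. With siRPL13 replicate 1 left out of the 5 libraries the TFRC difference was 0.65, and with siRPL13 replicate 2 left out it was 0.64. Each of these fits holds 1 siRPL13 library, so the spread between siRPL13 libraries is not in it.

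**Figure D3:**
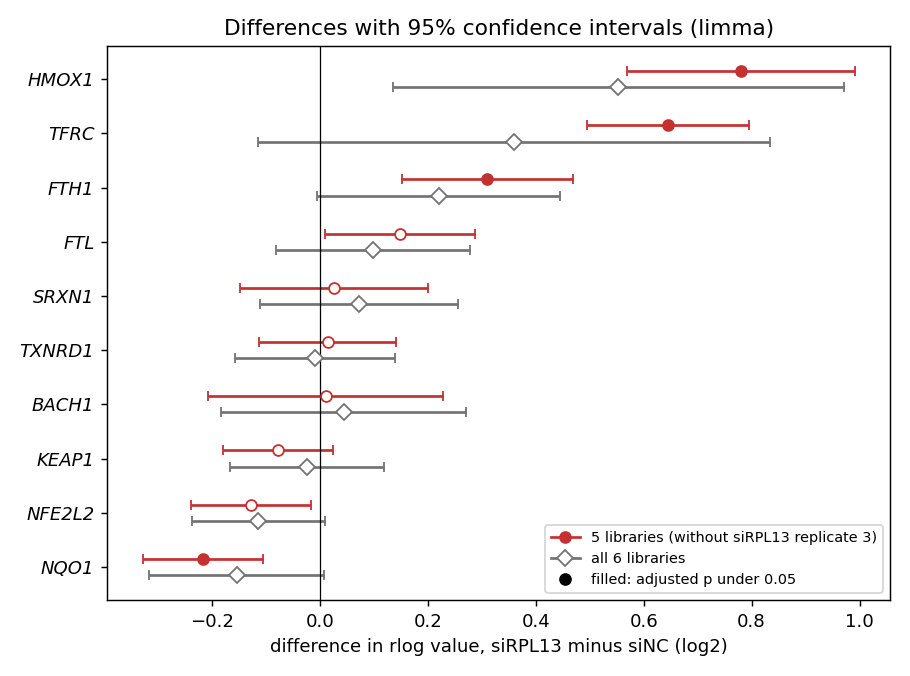
Difference in rlog value between siRPL13 and siNC (horizontal axis, log2) for the 10 genes, with 95% confidence intervals from limma, as red circles for 5 libraries and grey diamonds for all 6, filled where the adjusted p was under 0.05. HMOX1, TFRC and FTH1 lie at 0.78, 0.64 and 0.31 and NQO1 at -0.22 with 5 libraries, and no grey diamond is filled.

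Levels were compared between genes only after subtracting the log2 of the exonic length in kilobases, as ranks among 12383 protein-coding genes. On this scale FTL ranked 1, FTH1 20, NQO1 120, TXNRD1 326 and TFRC 381, so these genes were among the most abundant messages of the cells. KEAP1 ranked 1092, HMOX1 1618 and NFE2L2 4164. SRXN1 ranked 8219 and BACH1 9461. These genes also had the lowest mean rlog of the 10 before length was subtracted (7.65 and 8.23). The rlog transformation pulls low values most, but the size of that effect was not measured. Exonic length was the union of all annotated exons, so the ranks are approximate.

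Other genes of the same pathways were read from 5 lists with 100 genes, of which 89 were tested. With 5 libraries 6 of the 89 rose and 18 fell, a called share of 27.0% beside 19.1% of all genes tested, and their median difference was -0.06 (log2), beside 0.00 for all genes. With 6 libraries 0 of the 89 passed by limma. The adjusted p-values (limma, 5 libraries) of the 19 genes named below as having risen or fallen ran from 0.000981 (PGD) to 0.0471 (NFE2L3). Most of these 19 calls were lost when siRPL13 replicate 1 was left out as well, and fewer were lost when siRPL13 replicate 2 was. Each of those fits holds 1 siRPL13 library, so the spread between siRPL13 libraries is not in it. Leaving out siNC replicate 3 kept 14 of the calls, siNC replicate 2 kept 16 (not MAFG, NFE2L3 and SLC25A28) and siNC replicate 1 kept 19. The calls lost without siNC replicate 3 were MAFG, NFE2L3, AKR1C3, TRIM16L and PRDX4. Of the 11 list genes that were not tested, ME1, TXNIP, STEAP4, TF, NCOA4 and FTMT are not analysed here, and ALDH3A1, FLVCR2, SLC40A1, HEPH and CP had a mean rlog under 3.

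Among 13 partners and regulators of NRF2 and BACH1, 2 rose and 3 fell (median difference -0.03), beside 8.42% higher and 10.7% lower among all genes. NFE2L1, an NRF2 relative that controls proteasome genes, fell by 0.40 ± 0.06 (SE, log2). It stood at 13.60 to 13.80 in siNC, 13.29 and 13.33 in replicates 1 and 2 of siRPL13, and 13.79 for the library labelled siRPL13 replicate 3. MAFG, a small MAF protein that pairs with NRF2 or BACH1 on DNA, fell by 0.23 ± 0.06, and NFE2L3, another relative, fell by 0.19 ± 0.06. The calls were lost under quantile scaling (adjusted p 0.0605 for MAFG and 0.0620 for NFE2L3, limma), and that of NFE2L3 also with no filter (0.0756), median centring (0.0570) and no trend (0.0676). FBXL17, an F-box protein known to act on BACH1, rose by 0.31 ± 0.07, and GSK3B, a kinase that marks NRF2 for degradation, rose by 0.29 ± 0.05. The differences with all 6 libraries were -0.24 for NFE2L1, -0.11 for MAFG, -0.07 for NFE2L3, 0.17 for FBXL17 and 0.12 for GSK3B.

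Among 22 NRF2 target enzymes and transporters, 2 rose and 6 fell (median difference -0.07), beside 8.42% higher and 10.7% lower among all genes. PIR, an iron-binding nuclear protein, fell by 0.39 ± 0.07, PGD, an NADPH-producing enzyme of the pentose phosphate pathway, fell by 0.36 ± 0.05, and CBR3, a carbonyl reductase, fell by 0.29 ± 0.08 (SE, log2). For PGD all 3 siRPL13 libraries (12.24, 12.26 and 12.59) lay below siNC, the third only by a margin under 0.01. AKR1C3, an aldo-keto reductase with close paralogs, rose by 0.34 ± 0.09 and TRIM16L by 0.26 ± 0.07. Both calls were lost when siNC replicate 3 was left out (adjusted p 0.0591 for AKR1C3 and 0.0701 for TRIM16L, limma). The differences with all 6 libraries were -0.28 for PIR, -0.25 for PGD, -0.14 for CBR3, 0.18 for AKR1C3 and 0.18 for TRIM16L. GCLM, the modifier subunit of glutathione synthesis, had a difference of -0.01 (95% interval -0.12 to 0.11); it was named after its value was seen.

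Of 17 genes of the thioredoxin, peroxiredoxin and peroxide system, 2 rose and 2 fell (median difference -0.06), shares close to the 8.42% and 10.7% of all genes. GPX1, a glutathione peroxidase, rose by 0.43 ± 0.06, from 13.66 to 13.79 in siNC to 14.21 and 14.10 in siRPL13 replicates 1 and 2. SOD2, the mitochondrial superoxide dismutase, rose by 0.40 ± 0.07 and lay above siNC in all 3 siRPL13 libraries (12.98, 12.95 and 12.73 against a siNC maximum of 12.70). PRDX1, a peroxiredoxin that SRXN1 repairs, fell by 0.22 ± 0.05 and lay below siNC in all 3 (14.14, 14.16 and 14.31 against a siNC minimum of 14.36). PRDX4, the peroxiredoxin of the endoplasmic reticulum, fell by 0.21 ± 0.05. The differences with all 6 libraries were 0.29 for GPX1, 0.32 for SOD2, -0.17 for PRDX1 and -0.11 for PRDX4.

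Of 21 genes of heme synthesis, breakdown and transport, 0 rose and 2 fell by limma (median difference -0.02), beside 8.42% and 10.7% of all genes. ALAD, the second enzyme of heme synthesis, fell by 0.40 ± 0.06, standing at 9.74 to 9.80 in siNC, 9.31 and 9.44 in replicates 1 and 2 of siRPL13, and 9.82 for the library labelled siRPL13 replicate 3. BLVRB, a biliverdin reductase, fell by 0.25 ± 0.06. BLVRA, the other biliverdin reductase on the list, had a difference of -0.11 ± 0.06 that did not pass (adjusted p 0.195, limma). It was named after its value was seen. The differences with all 6 libraries were -0.25 for ALAD and -0.15 for BLVRB. HMOX2, the constitutive heme oxygenase, named after its value was seen, had a difference of -0.17 ± 0.05 with an adjusted p of 0.0558 (limma), and of -0.07 with all 6 libraries. ALAS1, the first enzyme of heme synthesis and also named in this way, had a difference of -0.01 (95% interval -0.11 to 0.10).

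Of 16 genes of iron uptake, export and regulation, 0 rose and 5 fell by limma (median difference -0.09), beside 8.42% and 10.7% of all genes; TFRC itself is not counted among them. HFE, which binds the transferrin receptor, fell by 0.37 ± 0.06, PCBP2, an RNA-binding protein that also carries iron to ferritin, fell by 0.34 ± 0.05, and SLC25A28, a mitochondrial iron importer, fell by 0.30 ± 0.08. PCBP2 lay below siNC in all 3 siRPL13 libraries (11.63, 11.61 and 11.85 against a siNC minimum of 11.94). The differences with all 6 libraries were -0.21 for HFE, -0.27 for PCBP2 and -0.04 for SLC25A28. SLC25A28 stood at 10.78 for the library labelled siRPL13 replicate 3, above the 10.11 to 10.40 of siNC. ACO1, iron regulatory protein 1, named after its values were seen, stood at 11.28, 11.15 and 11.60 in siNC, 11.69 and 11.62 in replicates 1 and 2 of siRPL13, and 10.85 for the library labelled siRPL13 replicate 3. Its difference over 5 libraries was 0.31 ± 0.10 (SE), with an adjusted p of 0.0565 (limma), and 0.04 with all 6. IREB2, iron regulatory protein 2, also named after its values, had a difference of -0.07 (95% interval -0.19 to 0.05) and lay below siNC in all 3 siRPL13 libraries. SLC40A1, the iron exporter, was under the filter on low values. Among the list genes with values here, it alone held the hairpin pattern in a UTR.

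**Figure D4:**
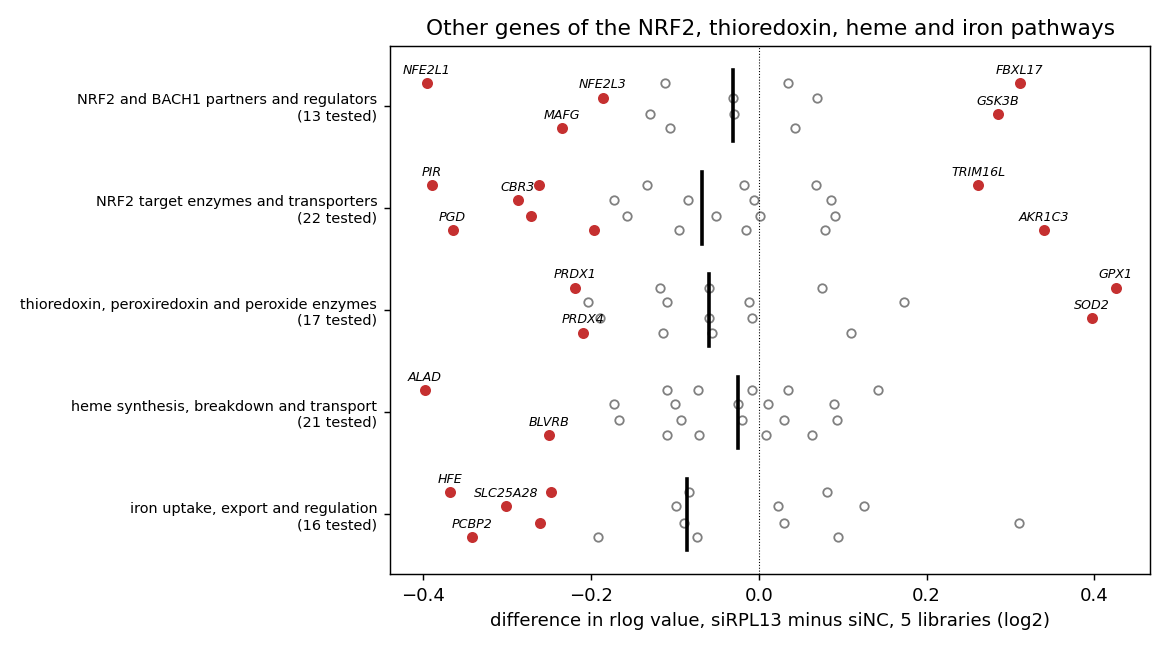
Difference in rlog value between siRPL13 and siNC with 5 libraries (horizontal axis, log2) for the 89 tested genes of 5 pathway lists, with a point per gene, filled red where the adjusted p was under 0.05, and a black line at each list median. The heme and iron lists have filled points on the lower side and 0 on the higher side, and the list medians lie between -0.09 and -0.02.

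The 5 genes whose levels were most like those of HMOX1 over the 6 libraries were SLC26A1, GPX1, PPP1R14B, CEND1 and LMTK3, with Pearson correlations of 0.988 to 0.992 among 1100 genes whose mean rlog was 5 or more and whose range was 0.5 or more. The correlation is carried by siRPL13 replicates 1 and 2, which stand apart from the other 4 libraries. PPP1R14B, an inhibitor of protein phosphatase, stood at 13.63 and 13.52 in these libraries and at 13.07 to 13.19 in siNC. SLC26A1, a sulfate transporter, stood at 7.70 and 7.48 against 7.10 to 7.25.

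**Figure D5:**
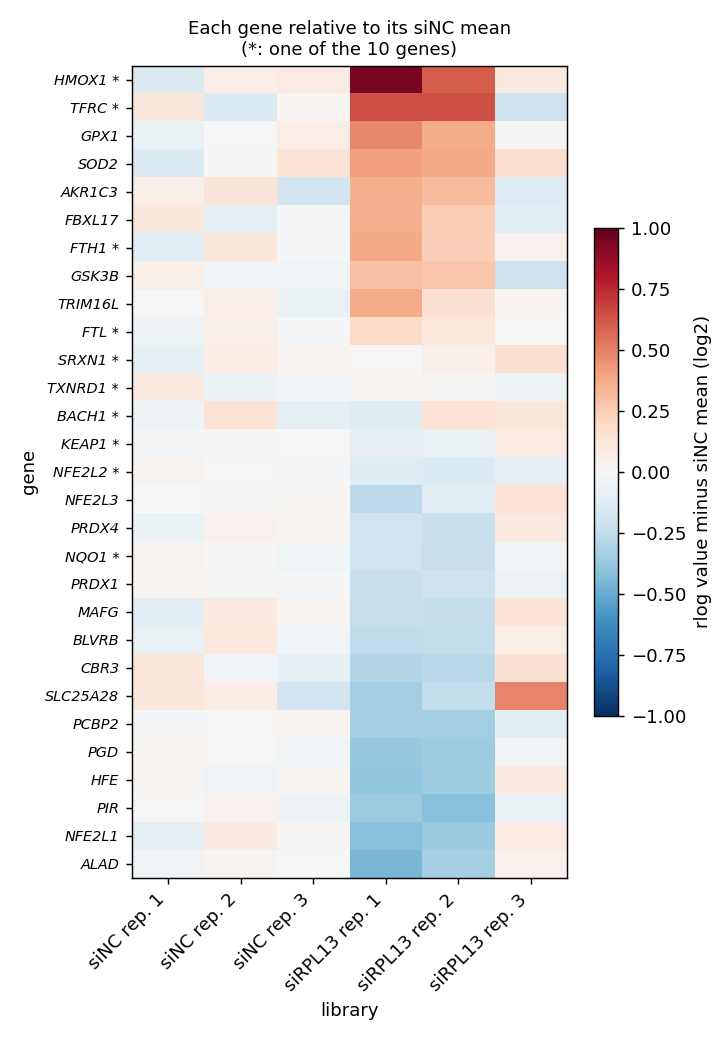
Level of the 10 genes (asterisk) and the 19 named list genes in each library (columns) as rlog value minus the siNC mean (colour, log2, from -1 to 1), sorted by the difference over 5 libraries. siRPL13 replicates 1 and 2 share a pattern that runs from HMOX1 and TFRC at the top to NFE2L1 and ALAD at the bottom. The library labelled siRPL13 replicate 3 does not share this pattern for most genes. It lies outside the siNC range for some of them, such as GSK3B (-0.22) and TFRC (-0.21) below it and SLC25A28 (0.49) above it. For others, such as FTH1 (0.04) and GPX1 (0.01), it lies within that range. The share of all genes for which this library lies outside the siNC range was not measured.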

How the data were processed

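The deposited table holds 1 regularized-log (rlog) value on the log2 scale per Ensembl gene and library, as its name states; the authors made it from reads, and the table carries no depth, so intervals for counting error cannot be had and depth is unknown. Trimmomatic 0.33, HTSeq 0.6.1p1, TopHat, DESeq2 and the build GRCh38.p7 are listed, per the submitters' processing notes, without settings. Columns were matched to samples by label. Symbols came from a table of gene names (20499 identifiers), then GENCODE 29; 821 identifiers were in neither.

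The 15327 genes whose mean rlog was 3 or more were fitted in R 4.3.3 by limma 3.58.1 (linear models, then two-sided eBayes tests with a trend), and p-values were adjusted by Benjamini-Hochberg over these genes. Count models need counts and were left out. Libraries are labelled biological replicates, without saying how cultures were separated, so p-values cover only the spread between these libraries, which may be technical.

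The genes, the lists and the comparison of 5 libraries were chosen with earlier results of these data known. The 10 genes and RPL13 are always named; from each list up to 3 genes per direction with the largest difference past the threshold are named; FTH1 and FTL pseudogenes are given as a count with the 3 of highest level; and the 5 genes most correlated with HMOX1 are named. Alternatives were no filter, a mean of at least 5, quantile scaling, median centring, no trend, library weights, a replicate block and leaving out each library. Simulated data for 15327 genes, 200 of them changed, served as a check. With 5 libraries the fit found 78% of genes changed by 0.5 (log2) and 96% of those changed by 1, and with 6 libraries 88% and 98%. The simulated noise had the spread of the 5-library fit, and every simulated siRPL13 library was shifted alike. The run with 6 libraries thus held no library like siRPL13 replicate 3. Its shares do not give the power of the real comparison of 6. Figures used matplotlib 3.10.9.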

Additional observations from a re-analysis of the deposited data

How the results depend on the processing

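With all 6 libraries limma called 0 genes under no filter, the stricter filter, quantile scaling, median centring and no trend, and library weights gave 5309, with siRPL13 replicate 3 weighted 0.163 and siRPL13 replicate 2 weighted 7.19. Leaving out 1 library gave 0 to 2933 genes, the highest without siRPL13 replicate 3. The replicate number as a block also gave 0 genes, with 1043 at an unadjusted p under 0.05 against 1275 without the block. Same-numbered libraries did not deviate together (correlations of 0.08, -0.43 and -0.33 for numbers 1, 2 and 3). The siRPL13 deviations mostly set replicate 3 against replicates 1 and 2. This check therefore cannot tell whether same-numbered libraries share a batch. With 5 libraries, leaving out 1 more gave 243 to 3748 genes, and the lowest counts came without siRPL13 replicate 1 (243) and without siRPL13 replicate 2 (943), where 1 siRPL13 library is assumed to vary like siNC. The calls of HMOX1, TFRC, FTH1 and NQO1 held under all alternatives run on 5 libraries that keep siRPL13 replicates 1 and 2. Their adjusted p-values there ran from 0.000150 to 0.00344 for HMOX1 and from 1.41e-05 to 0.00246 for TFRC (limma). The 2 alternatives that leave 1 siRPL13 library lost the calls of FTH1 and NQO1. In those 2, p-values hold no spread between siRPL13 libraries. Signs changed for genes near 0. With 6 libraries TXNRD1 was 0.0230 under quantile scaling and 0.0271 with library weights, and KEAP1 was 0.000218 under quantile scaling. Over the leave-outs from 6 libraries TXNRD1 ranged from -0.0406 to 0.0385, BACH1 from -0.0065 to 0.128 and KEAP1 from -0.0782 to 0.0042. Over those from 5 libraries BACH1 ranged from -0.124 to 0.145, SRXN1 from -0.0224 to 0.0613 and TXNRD1 from -0.0177 to 0.0614. The cause was not tested. Depth is unknown and limits low genes such as BACH1 and SRXN1 most.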
